A study of Rattus norvegicus with 9 samples.

Results

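A set of 9 genes that mark early oligodendrocyte and astrocyte lineages was followed in ventral spinal cord from rat embryos: Pdgfra, Olig1, Cnp, Mbp, Cspg4, Gfap, Aqp4, S100b and Glul. Every probe set (the group of short probes that reports a transcript) whose annotation gave exactly 1 of these 9 symbols was taken, which gave 16 of the 31042 probe sets on the array that are not controls. Total RNA was hybridised to 9 Affymetrix rat arrays, each with a pool of 5 embryos at embryonic day 14. Of these, 4 pools carried a human SOD1 transgene with the G93R substitution (title mark Roth), 4 pools carried wild-type hSOD1 (title mark Chan), and 1 pool, marked SDneg, was the negative control. SOD1 codes for an enzyme that removes superoxide, and its mutant forms are a known cause of inherited amyotrophic lateral sclerosis. The transgene promoter was not given in the sources used here; mutation, rat line and insertion site cannot be told apart. The description of the control pool also calls its embryos positive, against its title, and it has no replicate.

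In the embryonic cord, the domain of ventral progenitors that first makes motor neurons later makes oligodendrocyte precursors. Those precursors carry the receptor Pdgfra and the proteoglycan Cspg4 (NG2) and use the transcription factors Olig1 and Olig2. They make more of myelin proteins such as Mbp and Cnp as they mature. Astrocytes arise from radial glia and come to make the filament protein Gfap, the water channel Aqp4, the calcium-binding protein S100b and glutamine synthetase, coded by Glul. Several of these genes are also used outside glia: Pdgfra in mesenchyme, Cspg4 in pericytes, S100b in Schwann cells, and Mbp through longer golli transcripts in neurons and other cells.

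Only 3 of the 9 genes, Cnp, Mbp and Glul, had a probe set above background in every pool. The other 6, Pdgfra, Olig1, Cspg4, Gfap, Aqp4 and S100b, were above it in no pool on any probe set at the limit used here. The table holds no detection calls, so background was set at an intensity of 35.2, the 95th percentile of the values of 29 probe sets of 28 genes of pancreas, liver, testis, kidney and other organs. Over all 31042 probe sets, 43.5% were above this limit in all 9 pools and 45.7% in none, against 5 and 9 of the 16 described here. At lower limits some pools were above. The limit was 23.2 without the pancreas gene Pnlip, 19.1 at the 90th percentile of the same genes, and 13.4 at the highest bacterial control. Aqp4 on 1387397_at was above these in 2, 3 and 7 pools, and Gfap in 0, 1 and 3. Cspg4 and S100b were each above 13.4 in 1 pool, and Pdgfra and Olig1 in none. Of 14217 genes on the array with 1 symbol, 56.9% had a probe set above the limit in all 9 pools. A value near background on a probe set does not show that a transcript is missing. Tubb3, a tubulin of neurons, read 4.37 to 15.7 on probe set 1369901_at and 2641 to 3202 on 1371618_s_at in the same pools.

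**Figure D1:**
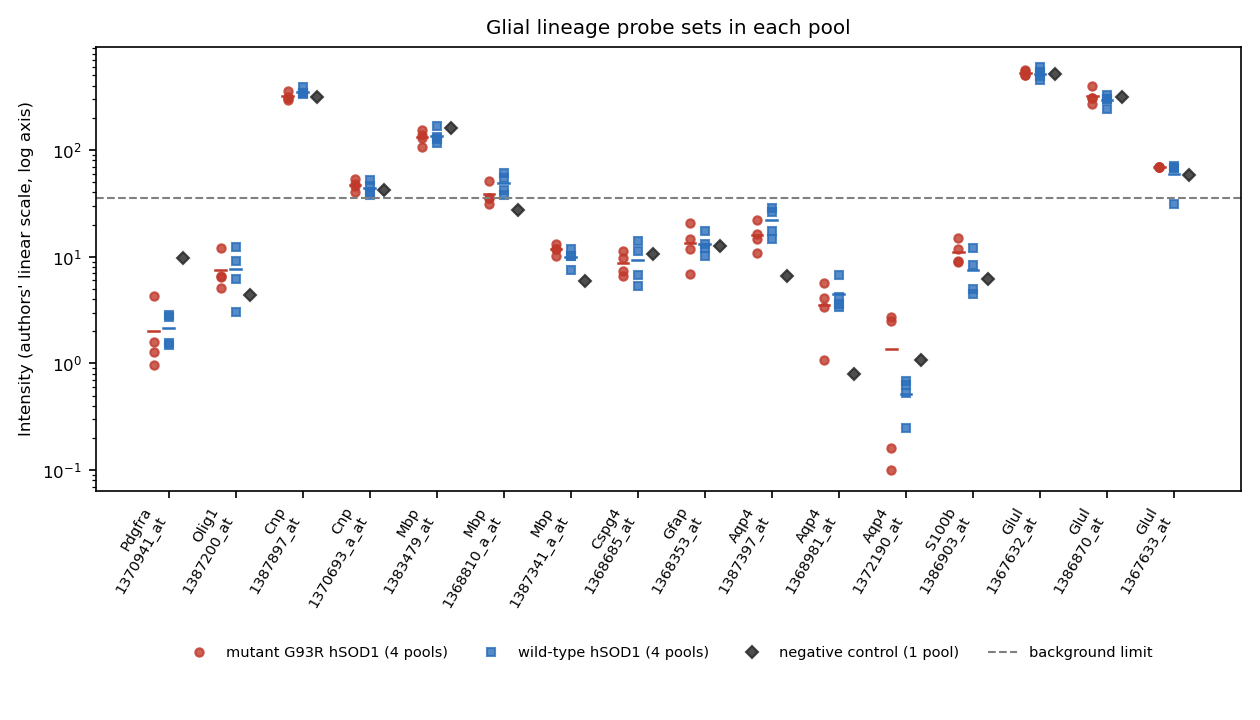
Intensity of the 16 probe sets in each pool on a log axis, with red circles for the 4 mutant pools, blue squares for the 4 wild-type pools, black diamonds for the negative control, short lines for group means and a dashed line at the background limit of 35.2. Cnp, Mbp and Glul each have a probe set above the line in all 9 pools, while Pdgfra, Olig1, Cspg4, Gfap, Aqp4 and S100b stay under it.

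The genes on either side of the limit were also compared in a sequence feature, after the levels had been seen. This was the number of CpG dinucleotides (the letters CG, which read alike on both strands) in the 250 bases before the annotated start. RefSeq windows of the rat build GRCr8 were found for 8 of the 9 genes, 11 windows in all. Of these, 4 are printed here, chosen by level to show both kinds, 5′ to 3′ on the strand of the gene, with each CG in capitals. The genes Cnp (chr10:86011254-86011503, plus strand) and Glul (second start, chr13:68575816-68576065, plus strand) were above background. The genes Gfap (chr10:88361662-88361911, minus strand) and S100b (chr20:12381082-12381331, minus strand) were not. Which of the Glul starts the probes read is not known.
Cnp: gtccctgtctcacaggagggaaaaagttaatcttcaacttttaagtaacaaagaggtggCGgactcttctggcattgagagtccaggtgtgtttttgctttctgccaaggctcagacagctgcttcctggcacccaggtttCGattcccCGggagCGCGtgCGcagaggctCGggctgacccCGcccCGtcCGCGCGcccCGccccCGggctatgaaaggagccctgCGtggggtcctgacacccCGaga
Glul: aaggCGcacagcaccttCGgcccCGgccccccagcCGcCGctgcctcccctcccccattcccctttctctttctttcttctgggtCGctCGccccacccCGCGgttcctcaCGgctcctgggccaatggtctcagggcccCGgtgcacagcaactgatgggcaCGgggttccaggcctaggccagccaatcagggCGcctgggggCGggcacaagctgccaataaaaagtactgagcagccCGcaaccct
Gfap: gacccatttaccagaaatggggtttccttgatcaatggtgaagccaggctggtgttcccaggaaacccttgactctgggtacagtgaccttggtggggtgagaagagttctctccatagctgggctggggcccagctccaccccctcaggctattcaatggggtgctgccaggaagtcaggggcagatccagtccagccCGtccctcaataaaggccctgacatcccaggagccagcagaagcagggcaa
S100b: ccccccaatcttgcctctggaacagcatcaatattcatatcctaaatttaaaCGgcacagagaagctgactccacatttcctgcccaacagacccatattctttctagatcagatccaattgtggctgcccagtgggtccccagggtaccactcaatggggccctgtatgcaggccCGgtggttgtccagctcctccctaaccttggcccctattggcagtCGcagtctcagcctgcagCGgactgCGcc

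The Cnp window holds 16 CpG, the Glul window 15, that of S100b 5 and that of Gfap 1. Of all 33469 windows, 23.8% hold as many as Cnp or more, and 18.1% hold as few as Gfap or fewer. The other windows of genes above background held 13 (Glul, first start), 12 and 11 (Mbp). Those of genes near background held 4 (Pdgfra), 4 and 3 (Aqp4) and 14 (Cspg4), so that Cspg4 went against the pattern. The relation was not particular to glial genes. Over the array, each gene was taken at its window with most CpG, a number with a median of 15, against 5 over all windows. Among 11700 genes of the array with a window, 20.8% of those with 0 to 4 CpG were above background in all 9 pools, 65.4% of those with 10 to 14, and 74.6% of those with 20 or more. These shares are a description of the windows and of this tissue, with no test.

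**Figure D2:**
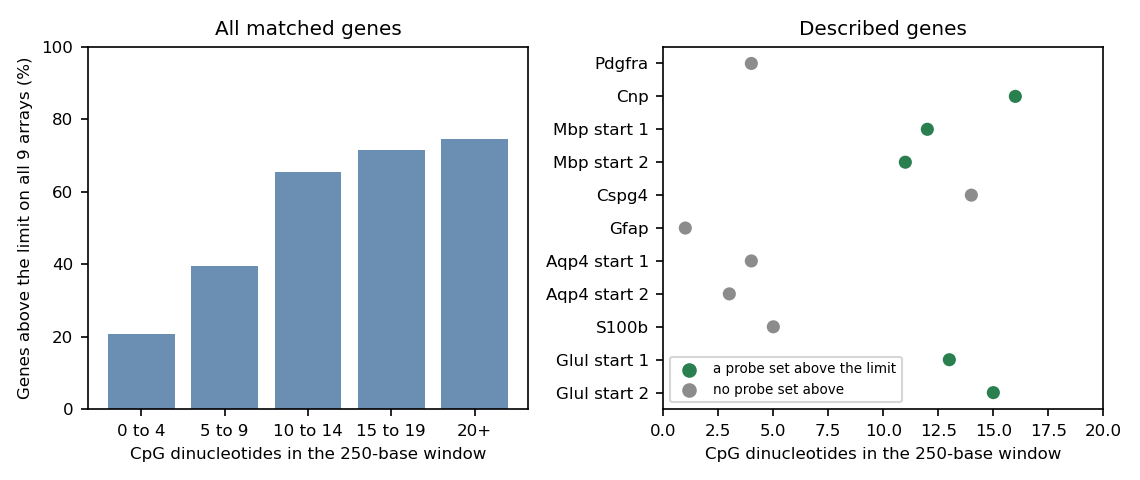
Left, the percentage of all matched genes above the background limit on all 9 arrays (bars), by the number of CpG dinucleotides in the 250 bases before the start. Each gene is taken there at its window with most CpG. Right, the CpG number of each window of the described genes (points), in green for genes with a probe set above the limit. The share climbs from 20.8% to 74.6% from left to right, and Cspg4 with 14 CpG is the one grey point among the green ones.

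Among the genes of oligodendrocyte precursors, Pdgfra (1370941_at), the receptor for platelet-derived growth factor, was near background in every pool. It read 0.971, 1.58, 1.28 and 4.28 in mutant replicates 1 to 4, 1.57, 2.85, 1.48 and 2.75 in wild-type replicates 1 to 4, and 9.73 in the negative control. All 8 transgenic values lay under the control, but every value also lay under 13.4, the highest reading of 27 bacterial control probe sets with no match in the sample. The control lay outside the range of the 8 transgenic pools at 19.7% of tested probe sets. Pdgfra was too low to be tested and is not in that share. Olig1 (1387200_at), a transcription factor of the lineage, ranged from 3.03 to 12.3 over the 9 pools. Cspg4 (1368685_at) ranged from 5.31 to 14.1. Mutant and wild-type values overlapped for all 3 genes.

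Among the myelin genes, Cnp, an enzyme of the myelin sheath, was above background on both of its probe sets. On 1387897_at it read 309, 360.1, 294 and 312 in mutant replicates 1 to 4, 331, 388, 342 and 339 in wild-type replicates 1 to 4, and 317 in the negative control. Mutant values reached lower than wild-type values, but the groups overlapped. On 1370693_a_at Cnp read 48.1, 45.9, 40.2 and 53.0 in the mutant pools, 40.2, 38.1, 52.7 and 45.8 in the wild-type ones and 42.2 in the control. Here the order of the group means was the opposite, at 46.8 ± 5.32 and 44.2 ± 6.52 (SD, n = 4 each).

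Mbp, the basic protein that compacts myelin, gave a different level on each of its 3 probe sets. On 1383479_at it read 130.1, 154, 138 and 107 in the mutant pools, 128, 168, 133 and 117 in the wild-type ones and 159.9 in the control, always above the limit. On 1368810_a_at it read 35.8, 51.6, 35.7 and 31.0 in the mutant pools, 61.4, 54.3, 38.0 and 42.2 in the wild-type ones and 27.3 in the control. The control was the lowest of all pools on this probe set, and 7 of 9 pools were above the limit. At 19.7% of all tested probe sets the control lay outside the range of the 8 transgenic pools. On 1387341_a_at all pools were near background, from 5.98 in the control to 13.2. The files do not place the probes on transcripts, so golli and myelin forms of Mbp could not be told apart.

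Among the astrocyte genes only Glul, which makes glutamine from glutamate, was above background. On 1367632_at it read 509.7, 564, 507 and 548 in the mutant pools, 598, 458, 534 and 491 in the wild-type ones and 520.3 in the control. On 1386870_at it read 305, 396, 307 and 272 in the mutant pools, 302, 244, 325 and 298 in the wild-type ones and 317 in the control. On 1367633_at it read 69.6, 69.1, 69.1 and 68.6 in the mutant pools, 68.4, 31.5, 67.1 and 71.1 in the wild-type ones and 58.0 in the control. Wild-type replicate 2 was the lowest pool on all 3 Glul probe sets, and on the last it was the only pool under the limit, while the other 7 transgenic pools lay between 67.1 and 71.1.

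The other astrocyte genes stayed near background. Gfap (1368353_at) ranged from 6.86 to 20.5 and S100b (1386903_at) from 4.51 to 14.9 over the 9 pools. Aqp4 was under 6.70 on 1368981_at and under 2.74 on 1372190_at, the highest values there. On 1387397_at Aqp4 read 14.8, 22.3, 16.3 and 10.8 in the mutant pools, 26.4, 28.9, 14.6 and 17.6 in the wild-type ones and 6.59 in the control. All 8 transgenic pools were above the control on this probe set, and all 9 were under the background limit, though 7 exceeded the highest bacterial control value of 13.4. On 1368981_at 8 of 8 transgenic pools were above the control, and on 1372190_at 2 of 8. The control lay outside the range of the 8 transgenic pools at 19.7% of tested probe sets. Aqp4 was too low to be tested and is not in that share.

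Mutant pools were set against wild-type pools to ask whether the glial genes differ between the transgenes in the embryo. Of the 16 probe sets, 7 passed the filter on low values (a mean intensity of about 17.3, which is lower than the background limit) and were tested: those of Cnp (2), Mbp (2) and Glul (3). None of the 7 passed the limma test (adjusted p of 0.929 to 0.978), and 0 had an unadjusted p under 0.05. Over all 18625 tested probe sets, 0.0161% passed, so a count of 0 among 7 says little about these genes. The groups did not overlap at 2.95% of tested probe sets and overlapped at all 16 probe sets described here.

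The log2 differences (mutant minus wild-type, after adding a pseudocount of 8.25) had a median of 0.04 over the 7 probe sets and of 0.01 over all tested ones. Cnp differed by −0.13 (SE 0.0960, 95% interval −0.34 to 0.07) on 1387897_at and by 0.07 (95% interval −0.23 to 0.38) on 1370693_a_at. Mbp differed by −0.29 (SE 0.176, 95% interval −0.67 to 0.09) on 1368810_a_at and by −0.04 (95% interval −0.33 to 0.26) on 1383479_at. For Glul the differences were 0.04, 0.12 and 0.24, with 95% intervals of −0.17 to 0.24, −0.15 to 0.39 and −0.18 to 0.67. Leaving out 1 pool at a time moved several of these by more than 1.5 times. Glul on 1386870_at went to 0.015 without mutant replicate 2 and to 0.038 without wild-type replicate 2. Cnp on 1370693_a_at ranged from 0.016 to 0.15, without wild-type replicates 2 and 3, and Cnp on 1387897_at went to −0.083 without wild-type replicate 2. Mbp on 1368810_a_at went to −0.19 without wild-type replicate 1. As folds, the 7 intervals together span 0.628 to 1.59, so smaller differences of either sign remain possible in each gene.

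A measure of RNA quality differed between the groups. The 3′/5′ ratio of the beta-actin controls was 6.98 to 7.98 in the mutant pools, 8.19 to 19.2 in the wild-type ones and 6.66 in the control (exact two-sided permutation p = 0.0286 for mutant against wild-type, 4 pools each, the smallest p this design allows). The GAPDH ratio was 2.49 to 2.59 and 2.59 to 3.56 in these groups, which overlapped (exact two-sided permutation p = 0.0571), and 2.68 in the control, within the wild-type range. Wild-type replicate 2 had the ratio of 19.2; it held the lowest Glul values and the highest values of Cnp on 1387897_at and Mbp on 1383479_at. Without it the Glul difference on 1367633_at was 0.0043, that on 1367632_at turned to −0.020 and that of Mbp on 1383479_at to 0.061. With the log2 actin ratio as a covariate 0 of the 7 probe sets passed, and the signs turned for Cnp on 1370693_a_at (−0.043), Mbp on 1383479_at (0.16) and Glul on 1367632_at (−0.046) and 1367633_at (−0.18), while Glul on 1386870_at differed by 0.0029. The actin ratios of mutant and wild-type pools did not overlap, so ratio and transgene cannot be told apart. Differences with this covariate, here and for other genes, are therefore extrapolations.

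**Figure D3:**
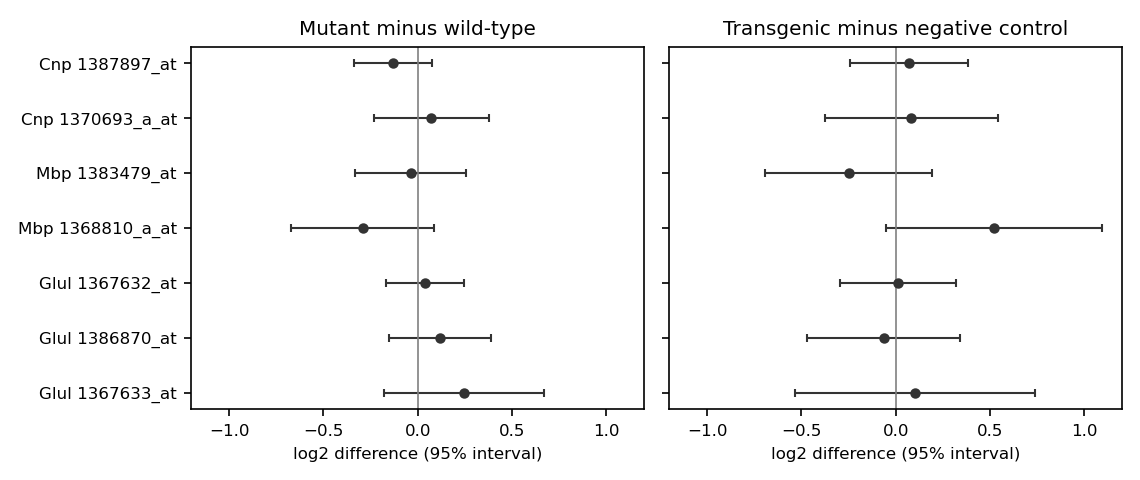
Log2 differences of the 7 tested probe sets (points) with 95% intervals of limma's moderated estimate (bars), mutant minus wild-type on the left and both transgenic groups minus the negative control on the right. Every interval includes 0, and the largest point estimate is 0.52 for Mbp 1368810_a_at on the right.

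Against the negative control, the mean of both transgenic groups was compared in a fit of all 9 arrays, in which the single control is assumed to vary like the transgenic pools. Again 0 of 7 probe sets passed (limma adjusted p = 1.00 for each) and 0 had an unadjusted p under 0.05, while over all tested probe sets 0% passed. Mbp on 1368810_a_at differed most, by 0.52 (SE 0.265, 95% interval −0.05 to 1.10, limma adjusted p = 1.00), and was higher in 8 of 8 transgenic pools. On 1383479_at the Mbp difference had the other sign, −0.25 (95% interval −0.69 to 0.19), with 1 of 8 transgenic pools above the control. The control lay outside the range of the 8 transgenic pools at 19.7% of all tested probe sets.

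The remaining tested differences from the control were smaller. Cnp differed by 0.07 and 0.08, and Glul by 0.01, −0.06 and 0.10. The intervals of these 5 probe sets lay between −0.53 and 0.74. With the log2 actin ratio as a covariate, Glul on 1367633_at differed from the control by 0.42 and Mbp on 1383479_at by −0.40. The actin ratio of the control, 6.66, lay under the lowest of the mutant (6.98) and wild-type pools (8.19). These 2 differences are therefore extrapolations from a single control pool. Without wild-type replicate 2 and without the covariate, the Glul difference on 1367633_at was 0.22. Among the probe sets under the filter, fitted only when no filter was set, Pdgfra differed by −0.80 on the log2 scale and Aqp4 on 1387397_at by 0.84 (limma adjusted p = 1.00 for both). Both differences rest on a single control pool. These were the largest differences among the 9 probe sets under the filter. Both genes lay under the background limit of 35.2 in every pool. Pdgfra was also under the bacterial control value of 13.4 in all pools, where Aqp4 was above it in 7 of 9.

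Different probe sets of 1 gene did not follow each other closely from pool to pool. Over the 9 pools, log2 values on the Cnp probe sets had a Pearson correlation of −0.21 and those on the Mbp probe sets 0.20. Correlations among the 3 Glul probe sets lay between 0.55 and 0.63, with Spearman coefficients between −0.02 and 0.42. The most similar probe sets of other genes over the 9 pools were Irf2bpl and Fnip2 for Cnp (Pearson r = 0.98 and 0.95), Sstr3 and Vangl2 for Mbp (0.94 and 0.93), and Mtrf1 and Slc25a33 for Glul (0.94 for both). Each was among the highest of 13293 or 13294 coefficients over few arrays that share tissue and scaling, and such coefficients are a description.

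Lists of related genes were read against the 56.9% of all genes that had a probe set above background in all pools. Of 10 genes of oligodendrocyte specification on the array, 4 were above background in all pools: Nkx6-1 and Nkx6-2, homeobox genes of ventral progenitors, Sox6, a transcription factor that holds precursors back from maturing, and Pdgfa, the ligand of Pdgfra. Pdgfa read 51.0 to 99.9 over the 9 pools, while its receptor was near background. Mutant minus wild-type, Sox6 on 1381489_at differed by 0.35 (95% interval 0.01 to 0.69, limma adjusted p = 0.929). On 1393376_at it was near background, at 1.27 to 11.8. Of the 6 tested genes of this list, 2 were higher and 4 lower in mutant pools. Nkx2-2, a homeobox gene of the ventral-most progenitors, read 34.4 to 89.7 and was above the limit in all but mutant replicate 1. Tcf7l2 varied widely, from 18.9 to 139, and was under the limit in mutant replicates 1 and 3 only. Olig2, Sox10, Zfp488 and Myrf were above the limit in no pool. Olig2 read 1.40 to 10.5 on 1379593_at and 0.734 to 9.01 on 1398212_at, both near background in a tissue where its progenitor domain is known to lie.

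Genes of mature oligodendrocytes were nearly all near background. Of 13 on the array 12 were above the limit in no pool, among them Mog, Mag, Mobp, Ugt8 and Opalin. The remaining one was Cldn11, a tight-junction protein of myelin, at 34.1 to 77.0. Wild-type replicate 2 had its highest value, 77.0. Mutant minus wild-type, its difference was −0.27 (95% interval −0.67 to 0.13, limma adjusted p = 0.929). It was −0.091 without that pool and turned to 0.048 with the actin ratio as a covariate.

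Genes of radial glia and the start of gliogenesis were above background at 7 of 13, near the share of all genes: Nfia and Nfib, transcription factors that start glial programmes, the glutamate transporter gene Slc1a3, Fabp7, Fgfr3, Vim and Stat3. Nfia read 143 to 215 and Vim, an intermediate filament of radial glia, 486 to 692. Fabp7, a lipid-binding protein of radial glia, varied widely between pools of 1 group, from 165 to 681 in mutant and 161 to 629 in wild-type pools, with 149 in the control. Slc1a3 on 1371130_at read 79.7, 85.4, 78.6 and 89.8 in the mutant pools, 103, 119.9, 121 and 102 in the wild-type ones and 103 in the control. These groups did not overlap, as at 2.95% of all tested probe sets. The difference was −0.38 (95% interval −0.63 to −0.14, limma adjusted p = 0.929). On 1368565_at the order was reversed, with means of 69.8 for mutant and 58.9 for wild-type pools. On 1388064_a_at Slc1a3 was near background, at 0.548 to 12.1.

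Genes of maturing astrocytes were above background at 3 of 13, Aldoc, Ndrg2 and Sparcl1, none of them confined to astrocytes in the embryo. Aldh1l1, Slc1a2, Gjb6, Acsbg1 and Hepacam were near background in every pool. Gja1, the connexin of astrocyte gap junctions, read 20.1 ± 4.47 in mutant and 31.2 ± 12.1 in wild-type pools (n = 4 each) and 24.9 in the control, a difference of −0.44 (95% interval −0.90 to 0.03, limma adjusted p = 0.929). Only wild-type replicate 2, at 47.2, was above the limit for Gja1. The difference was −0.26 without that pool, and −0.10 when the actin ratio was a covariate. Ndrg2 was near background on 1398111_at, at 0.307 to 5.63. On 1387121_a_at Ndrg2 averaged 141 ± 7.12 in the mutant and 149.6 ± 8.57 in the wild-type group (n = 4 each) against 103 in the control. There it was higher in 8 of 8 transgenic pools, by 0.47 on average, against a single control pool. At 19.7% of all tested probe sets the control lay outside the range of the 8 transgenic pools. Of the genes tested in the lists of specification (6), myelin (1), gliogenesis (8) and astrocyte maturation (4), 0 passed in either comparison.

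**Figure D4:**
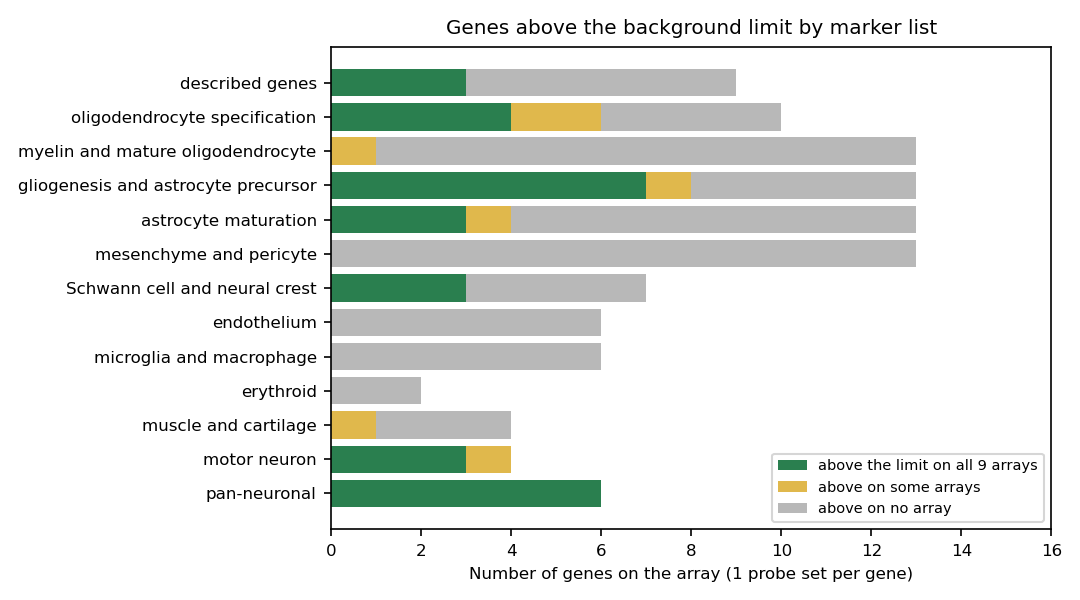
Number of genes of each marker list on the array, 1 probe set per gene, split by whether the gene was above the background limit on all 9 arrays (green), on some (yellow) or on none (grey). Gliogenesis genes were above it at 7 of 13 and myelin genes at 0 of 13, while all 6 pan-neuronal genes were above.

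The labelled tissue was checked against its markers. All 6 pan-neuronal genes were above background in all pools, as were the motor neuron genes Isl1, Chat and Slc18a3. Isl2, the other motor neuron gene on the array, read 29.3 to 69.6 and was under the limit in mutant replicate 4 and wild-type replicate 1. The summed intensity of the 6 probe sets of these 4 genes was 900.4 to 1415 in mutant pools, 749 to 1098 in wild-type pools and 1011 in the control. This sum and those of the lists below take every probe set of a list, while levels and differences take 1 per gene. Of the 4, 3 were higher in mutant pools, with a median difference of 0.26 against 0.01 over all probe sets, and 0 passed the test. Isl1 differed by 0.45 (95% interval 0.14 to 0.75, limma adjusted p = 0.929). The part of motor neuron content in the glial values was not tested. Of mesenchyme and pericyte genes, which bear on Pdgfra and Cspg4, 0 of 13 were above the limit in any pool, with a summed intensity of 162 to 208 in the mutant pools, 179 to 204 in the wild-type ones and 169.8 in the control. Endothelial genes (6, summing to 68.6 to 104 over the 9 pools) and genes of microglia and macrophages (6, summing to 36.9 to 83.8) were likewise near background in all pools. Of 7 Schwann cell and neural crest genes, which bear on S100b, Erbb3, Foxd3, Dhh and Egr2 were near background, and Ngfr, Pmp22 and Tfap2b, which neurons or other cells also use, were above it. The sum of this list was 1577 to 2002 in the mutant pools, 1779 to 2219 in the wild-type ones and 1840.3 in the control. Mutant minus wild-type, Pmp22 differed by 0.46 (95% interval 0.10 to 0.81, limma adjusted p = 0.929). Of the 3 tested genes of this list, 1 was higher and 2 lower in mutant pools. In pools of whole tissue, fewer cells of a type and less RNA per cell cannot be told apart.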

How the data were processed

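RNA of 9 pools was measured on Affymetrix rat arrays. The deposited table holds linear intensities, one for each probe set of an array; the software that made them was not given in the sources used here. Scaling by the authors was inferred from the values, whose 2% trimmed mean was 150.05 on each array. Array medians were 31.0 to 33.9, and no further normalization was added. For arrays, their number limits the precision; the labels call the pools biological replicates, and p-values measure the spread between pools.

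Of 31099 probe sets, 57 controls were left out; of the rest, 20826 had 1 symbol, 436 several and 9780 none in the annotation table. Intensities were taken to log2 after adding 8.25 (25th percentile of the table). Probe sets at or under the 40th percentile of mean log2 were not tested, which left 18625. Differences were fitted by limma 3.58.1 (R 4.3.3; lmFit, then eBayes with a trend) on 8 arrays for mutant against wild-type and on 9 against the control. P-values of all tested probe sets were adjusted by Benjamini-Hochberg, with calls at 0.05. The pipeline was tested on simulated data. The actin ratio was compared by an exact permutation test in SciPy 1.17.1.

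Genes named were all 9 described genes with every probe set and, of each other list, up to 4 genes with the smallest p per comparison and the 2 probe sets most correlated with each tested gene; marker genes were also named for their level. The members and lists were chosen with earlier results of these data known. CpG were counted in RefSeq windows of GRCr8, after the levels had been seen.

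Alternatives were quantile normalization, other pseudocounts and filters, no intensity trend, a replicate block and other background limits. The title tag le2 or the actin ratio was also used as a covariate, and each transgenic array was left out in turn. The tag, whose meaning is not given, marks 3 of the 4 pools of each transgenic group and not the control. Against the control, tag and transgene cannot be fully told apart.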

Additional observations from a re-analysis of the deposited data

Results flagged for a closer look

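Glul on probe set 1367633_at read 31.5 in wild-type replicate 2, where the other wild-type pools read 67.1 to 71.1. The gap to the nearest pool was 0.900 of the range of the group, above Dixon's 95% critical value for 4 samples. This was the only such value among 32 groups of 4 (16 probe sets in both transgenic groups), and chance flags about 1 in 20 groups. The same pool had the lowest Glul values on the other 2 probe sets (458 and 244) and the highest actin 3′/5′ ratio, 19.2; the part of RNA quality in the Glul value was not tested.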

How the results depend on the processing

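The count of described probe sets past the threshold was 0 in both comparisons under each alternative run, including the replicate block, and the lowest limma adjusted p was 0.644. Of the 234 values that the 14 differences of Cnp, Mbp and Glul took under other settings, 223 kept their sign. Between mutant and wild-type pools, probe sets past the threshold over the whole array numbered 3 in the main setting. They numbered 0 without an intensity trend, with the actin ratio as a covariate or with only arrays that carry the le2 tag (an alternative chosen after seeing the data). They numbered 1 with the le2 tag as a covariate, without a filter or with a filter at the 60th percentile, 3 with a replicate block, and 1 to 3 without 1 array. Against the negative control they numbered 0, 2 with a pseudocount of 2.06, and 0 to 1 without 1 array; a block could not be fitted there, since the control has no number.

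With the actin ratio as a covariate, signs turned between mutant and wild-type for Cnp 1370693_a_at (−0.043), Mbp 1383479_at (0.16), Glul 1367632_at (−0.046), Glul 1367633_at (−0.18) and Cldn11 (0.048), and against the control for Cnp 1387897_at (−0.0034) and Glul 1386870_at (0.025). Leaving out 1 array moved the mutant against wild-type difference of Mbp 1383479_at between −0.11 and 0.061, of Glul 1367632_at between −0.020 and 0.11 and of Vim between −0.14 and 0.026, and the difference from the control of Glul 1367632_at between −0.023 and 0.040. The cause was not tested.

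The number of described probe sets above background in all pools was 5 in the main setting and after quantile normalization. It was 7 with the limit at 19.1 (90th percentile), 18.2 (40th percentile of all values), 23.2 (without Pnlip, which read 59.0 to 112) or 13.4 (bacterial controls), the last 2 chosen after seeing the data. The 2 more were Mbp 1368810_a_at and Glul 1367633_at. At those limits Aqp4 1387397_at was above in 2 to 7 pools and Gfap in 0 to 3, never in all 9. Without 1 array it was 5 to 6. The replicate numbers share no stated source: the departures of same-numbered pools from their group means correlated by 0.12, 0.09, −0.07 and 0.20 across probe sets, and 2 of the 4 mutant pools correlated best with their own number.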
